A study of Homo sapiens with 3 samples.

Results

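HBB, HBA1 and HBA2, the genes of the adult globin chains, together with ALAS2, S100A8, S100A9, PTPRC, CSF3R and LYZ, are genes of red and white blood cells. Their RNA was followed in 3 libraries of MDA-MB-231 tumorspheres. The 9 genes were chosen by their symbols, after their levels in these same 3 libraries were known, from 57773 genes listed in the deposited tables, and all 9 were found. The values that chose them are therefore given here as a description, with no test. The 3 globins held 5816 reads in the control library, 11 in the library labelled LINC00273 overexpression (hereafter the LINC-labelled library) and 6536 in the M2 library.

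MDA-MB-231, a widely used line of human breast cancer cells that lack hormone receptors and HER2, is labelled as epithelial. Tumorspheres are the floating clusters these cells make in dishes with a non-adhesive surface. All 3 groups were MDA-MB-231 spheres grown in medium with epidermal growth factor, B27 supplement, insulin and albumin, each with 1 library and a labelled time of 24 h. The control was untreated and labelled wild type. The second group, labelled by genotype as LINC00273 overexpression, was transfected with a plasmid in which a CMV promoter, active in most cell types, drives the long non-coding RNA LINC00273. The third, labelled wild type, received 10 µM M2, a compound for which the labels give a code name only. The labels tie LINC00273 to more metastatic tumours and M2 to tumour regression, and the comparisons ask which transcripts differ from the control under each.

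Haemoglobin carries oxygen in red cells as a tetramer of alpha-type chains, encoded by HBA1 and HBA2, and beta-type chains, encoded by HBB, each holding a heme group. ALAS2 is the red-cell enzyme for the first step of heme synthesis. Neutrophils and monocytes store S100A8 and S100A9, the subunits of calprotectin, and LYZ, the lysozyme that cuts bacterial cell walls. CSF3R is the receptor for the neutrophil growth factor G-CSF, and PTPRC is CD45, a tyrosine phosphatase carried on the surface of white cells in general.

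Reads on genes numbered 8620534 in the control, 5123199 in the LINC-labelled library and 4695535 in the M2 library. RN7SL1 and RN7SK, abundant small non-coding RNAs, took between 39.3% and 54.7% of them. LINC00273 itself had 0 reads in all 3 libraries, so the overexpression was not seen in these values and each direction for that library rests on its label. Among genes of MDA-MB-231 cells, VIM, the intermediate filament of mesenchymal cells, had 11763, 8910 and 4182 reads in the order control, LINC-labelled and M2. That order is used for every set of 3 values here. The keratins KRT8 and KRT18, which mark luminal epithelial cells, had 0, 6 and 2 reads and 4, 4 and 0 reads. Each group has 1 library, so there are no replicates and no p-values, and a ratio describes a pair of libraries, not of conditions. Nothing in the labels says whether a library came from 1 culture or several.

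Levels are in RPM, reads scaled to a library total of 1000000 reads on genes, and ratios are log2 ratios after TMM scaling, which corrects for the share taken by a few abundant RNAs. Ranges in parentheses are 95% exact (Clopper-Pearson) intervals of the split of sequenced fragments between libraries, and cover counting error only. Because TMM moves the LINC-labelled library against the control by 0.52 on the log2 scale relative to total reads, a quotient of levels differs from the ratio by that amount. In bulk RNA, fewer cells of a type and less RNA per cell cannot be told apart.

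The beta-globin gene HBB (ENSG00000244734, chromosome 11) had 4860 reads in the control, 9 in the LINC-labelled library and 5417 in the M2 library. These are levels of 564, 1.76 and 1154 RPM. The control and M2 libraries were both high, and the LINC-labelled library stood alone at a level near the limit that 3 fragments give there, 1.17 RPM. Against the control, HBB was 460-fold lower in that library (log2 ratio −8.85, interval −10.58 to −7.56). In the M2 library it was 1.71-fold higher than in the control, a log2 ratio of 0.78 (0.70 to 0.86).

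The alpha-globin gene HBA2 (ENSG00000188536, chromosome 16) had 788 reads in the control, 0 in the LINC-labelled library and 944 in the M2 library. A count of 0 there allows up to 1.17 RPM, against 91.4 in the control and 201 in the M2 library. Relative to the control, HBA2 was at least 112-fold lower on that reading, with a log2 ratio of at most −6.81 computed against 3 fragments in that library. The upper end of its exact interval was −6.50. In the M2 library it was higher than in the control by a log2 ratio of 0.88 (0.69 to 1.08).

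HBA1 (ENSG00000206172), the neighbouring copy with nearly the same coding sequence, had 168, 2 and 175 reads. Its log2 ratio was −6.16 (−11.48 to −3.64) for the LINC-labelled library against the control, and 0.68 (0.23 to 1.13) for the M2 library. Reads of the HBA1 and HBA2 copies can be assigned to either one by the counting, so their split is uncertain and their sum is the firmer value.

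Summed over HBB, HBA1 and HBA2, globin RNA made up 0.0675% of reads in the control, 0.000215% in the LINC-labelled library and 0.139% in the M2 library. The log2 ratio of the sum to the control was −8.81 (−10.34 to −7.64), or 450-fold lower, in the LINC-labelled library. It was 0.79 (0.72 to 0.86), or 1.73-fold higher, in the M2 library.

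The balance of the chains could be compared in the control and M2 libraries. HBB took 83.6% of globin reads in the control (82.2 to 84.9) and 82.9% in the M2 library (81.6 to 84.2), and the intervals overlap. Of the alpha-globin reads, HBA1 took 17.6% (14.3 to 21.3) in the control and 15.6% (12.8 to 19.0) in the M2 library. The 11 globin reads of the LINC-labelled library are too few for such a split.

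Per kilobase of annotated exon, HBB stood at 432, 1.35 and 885 RPM per kilobase, HBA2 at 111, 0 and 243, and HBA1 at 23.3, 0.468 and 44.6. In the control and M2 libraries the order of length-corrected levels was thus HBB, HBA2, HBA1, and each was above the same quantity for S100A9 (9.25, 0.677 and 14.8) and for ALAS2, which was highest in the control at 3.26. In the control the length-corrected levels then went down from S100A8 (1.38) through LYZ (0.723) and CSF3R (0.647) to PTPRC (0.481). In the M2 library S100A8 (3.81) and LYZ (3.74) stood next to each other, and CSF3R was lowest at 0.632. In the control S100A8, LYZ, CSF3R and PTPRC rest on 12, 11, 47 and 38 reads, so the order among them is not resolved. In the M2 library the order is not resolved between S100A8 and LYZ (18 and 31 reads) or between CSF3R and PTPRC (25 and 46 reads). Lengths are the union of all annotated exons of a gene, so these levels also depend on the annotation.

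**Figure D1:**
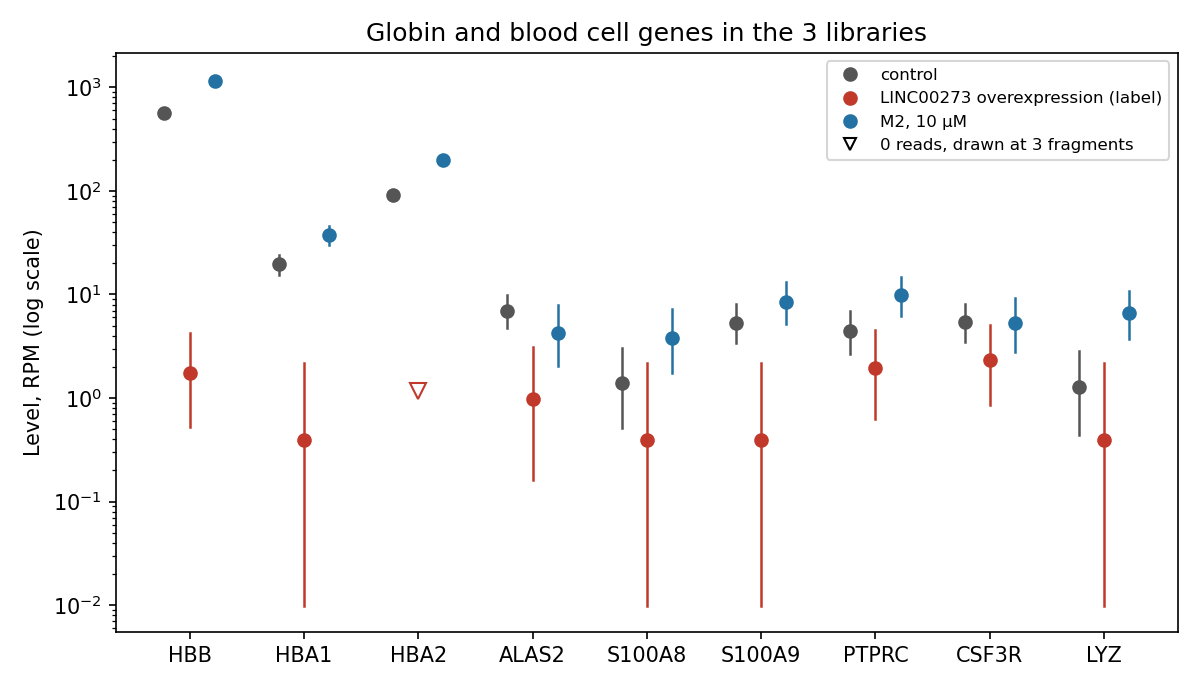
Level of each of the 9 genes in each library, in RPM on a log axis; points are single libraries, bars are 95% exact Poisson intervals of the fragment count, and the open triangle is a count of 0 drawn at 3 fragments. HBB stands at 564 in the control and 1154 in the M2 library and at 1.76 in the LINC-labelled library.

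The globins of other stages and minor chains were near the floor in every library. The 7 genes HBD, HBG1, HBG2, HBE1, HBZ, HBM and HBQ1 held 21, 9 and 26 reads in all. HBD, the minor adult beta-type chain, had 4, 4 and 5 reads, and the fetal gene HBG1 had 2, 0 and 9. The log2 ratio of the summed reads of these 7 genes was −0.99 (−2.98 to 0.72) for the LINC-labelled library against the control, an interval that includes 0. It was 0.93 (−0.36 to 2.25) for M2 against the control. For the M2 library against the LINC-labelled library it was 1.92 (0.29 to 3.87), an interval above 0. The adult pattern, with HBB and the alpha pair far above the fetal and embryonic chains, was present in the control and M2 libraries.

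The other 6 genes had levels of 1.28 to 6.96 RPM in the control, 0.390 to 2.34 in the LINC-labelled library and 3.83 to 9.80 in the M2 library. ALAS2 (chromosome X) had 60 reads in the control, 5 in the LINC-labelled library and 20 in the M2 library. It was lowest in the LINC-labelled library, as the globins were, but it was highest in the control rather than in the M2 library. Its log2 ratio to the control was −3.35 (−6.01 to −1.54) in the LINC-labelled library and −0.96 (−2.16 to 0.11) in the M2 library. The HBB interval for the M2 library, 0.70 to 0.86, lies above that second interval.

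The ALAS2 promoter is shown because GATA factors are the classical activators of red-cell genes, and S100A9 is shown beside it as a myeloid gene. RefSeq promoter windows (GRCh38.p14, from 250 bases before to 50 after a start site, written 5′ to 3′ on the gene's strand) were matched for 5 of the 9 genes, namely ALAS2, S100A8, S100A9, PTPRC and CSF3R, with 8 windows in all. HBB, HBA1, HBA2 and LYZ are named only. The ALAS2 window is chrX:55030928-55031227 (minus strand), and the S100A9 window is chr1:153357604-153357903 (plus strand). Capitals mark a GATA motif, which is GATA after A or T and before A or G, on either strand, or a TATA box, spelled TATAAA on the gene's strand.
ALAS2: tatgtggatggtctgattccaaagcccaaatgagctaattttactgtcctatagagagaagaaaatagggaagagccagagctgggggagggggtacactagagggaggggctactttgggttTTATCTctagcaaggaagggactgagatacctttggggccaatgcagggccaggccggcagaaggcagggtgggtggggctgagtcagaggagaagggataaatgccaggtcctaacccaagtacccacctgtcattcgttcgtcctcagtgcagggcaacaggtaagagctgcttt
S100A9: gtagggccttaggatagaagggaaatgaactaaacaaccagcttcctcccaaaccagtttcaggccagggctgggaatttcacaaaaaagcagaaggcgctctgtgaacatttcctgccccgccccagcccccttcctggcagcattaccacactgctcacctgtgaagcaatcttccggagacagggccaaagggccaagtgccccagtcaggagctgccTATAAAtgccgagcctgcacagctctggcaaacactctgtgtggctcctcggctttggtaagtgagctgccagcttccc
The ALAS2 window held 1 GATA motif, AGATAA on the opposite strand, from position −127 to −122 relative to the start site, and no TATA box in this spelling. The S100A9 window held a TATA box from position −29 to −24 and no GATA motif. One of the S100A8 windows held a TATA box at that same distance. Of 35116 such windows over all genes, 25.0% held a GATA motif and 7.33% the TATA box, and a match describes letters only.

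S100A9 and S100A8, the calprotectin pair, lie near each other on chromosome 1. S100A9 had 46, 2 and 40 reads, so that the control and M2 libraries were high and the LINC-labelled library was low. Its log2 ratios to the control were −4.29 (−9.66 to −1.67) in the LINC-labelled library and 0.42 (−0.52 to 1.35) in the M2 library. S100A8 had 12, 2 and 18 reads, and with so few reads both of its intervals against the control include 0 (−7.88 to 0.69, and −0.45 to 2.98).

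LYZ, the lysozyme gene on chromosome 12, had 11, 2 and 31 reads. It was highest in the M2 library, with a log2 ratio of 2.12 (0.64 to 3.84) to the control. Its ratio for the LINC-labelled library, −2.23 (−7.77 to 0.87), was not resolved at this depth. After scaling, 78.1% of the LYZ reads of the 3 libraries were in the M2 library, compared with 63.1% for HBB and 31.8% for ALAS2. The LYZ interval against the control covers that of HBB, 0.70 to 0.86, so the gap between LYZ and HBB is not resolved.

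PTPRC had 38, 10 and 46 reads and CSF3R had 47, 12 and 25. Both were lowest in the LINC-labelled library, where the log2 ratios to the control were −1.69 (−3.47 to −0.23) and −1.74 (−3.32 to −0.41). In the M2 library PTPRC stood at 0.90 (−0.04 to 1.85) and CSF3R at −0.29 (−1.41 to 0.76), and both intervals include 0. After scaling, the LINC-labelled library held 14.2% of the CSF3R reads of the 3 libraries, 9.74% of the PTPRC reads, 5.59% of the S100A8 reads, 3.85% of the LYZ reads and 2.14% of the S100A9 reads, with 0.0800% for HBB. The intervals of S100A8, S100A9 and LYZ against the control overlap that of HBB, so for those 3 genes the gap to HBB is not resolved at this depth.

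As a sum, ALAS2 and the 5 white-cell genes held 214, 33 and 180 reads. The log2 ratio of that sum to the control was −2.47 (−3.31 to −1.71) in the LINC-labelled library and 0.37 (−0.05 to 0.79) in the M2 library. The first interval lies above that of the globin sum, −10.34 to −7.64. The globins accordingly made up 96.5% of the reads of the 9 genes in the control, 25.0% in the LINC-labelled library and 97.3% in the M2 library.

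**Figure D2:**
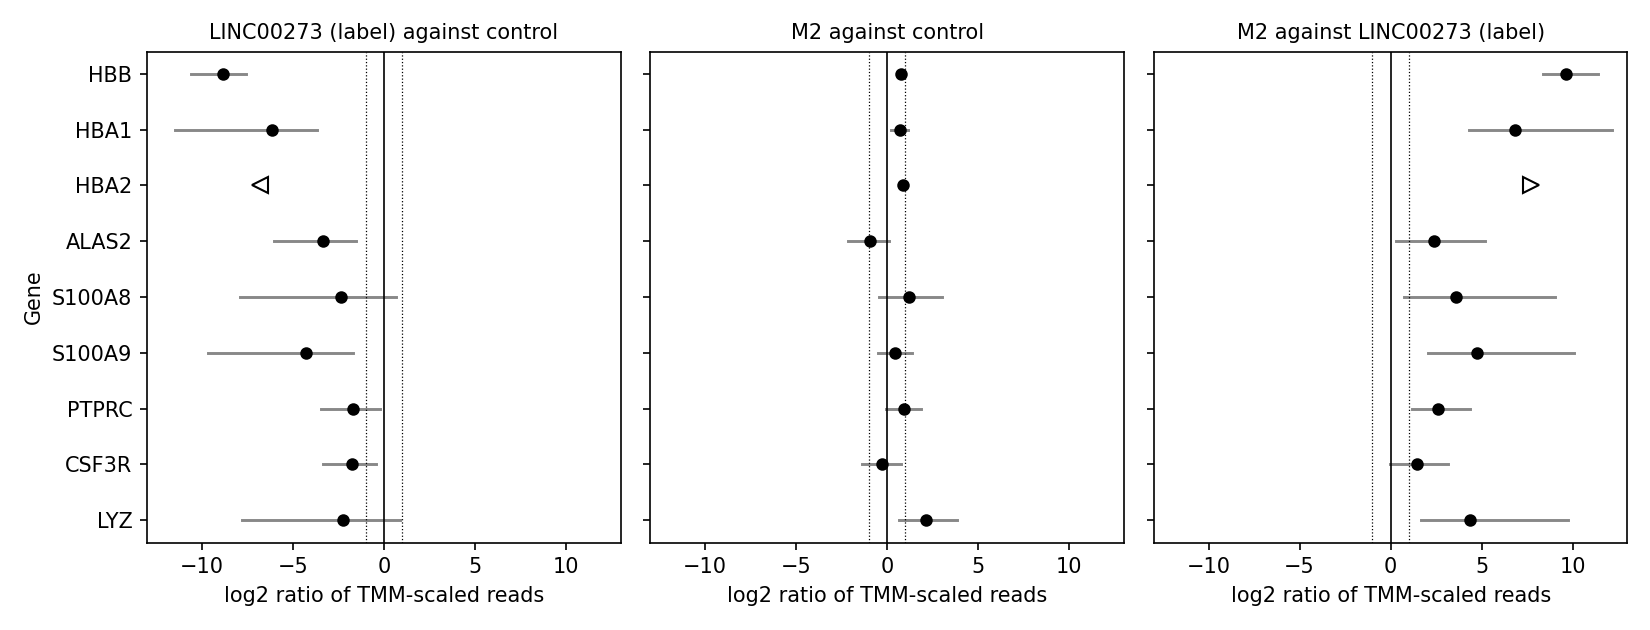
Log2 ratio of TMM-scaled reads for each of the 9 genes in the 3 pairs of libraries; bars are 95% exact binomial intervals of the fragment split, open triangles are bounds for HBA2 with 0 reads, and dotted lines mark 2-fold. HBB lies at −8.85 and 0.78 against the control and at 9.62 for the M2 library against the LINC-labelled library.

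Against all genes with at least 20 reads over both libraries, 9.33% of 8828 were lower by 2-fold or more in the LINC-labelled library relative to the control, and 9.45% were higher by as much. Of the 9 genes, 7 met that minimum and all 7 were at least 2-fold lower. LYZ and S100A8 did not meet it. At the stricter minimum of 100 reads in 1 or both libraries, 6.61% of 3842 genes were at least 2-fold lower, and of the 9 genes the 3 globins met it, all lower. Nothing is read from these counts, since the 9 genes were chosen with these values known. HBB, HBA2 (taken at its bound) and HBA1 had the 3 lowest ratios of the 8828 genes, and their order among themselves is not determined, since HBA2 has 0 reads and the HBA1 interval covers the other values. S100A9 had rank 5 and ALAS2 rank 14 from the lowest, whereas CSF3R had rank 193 and PTPRC rank 207. The median log2 ratio was −4.29 over the 7 genes and −0.08 over all genes. Each of the 7 had between 0 and 12 reads in the LINC-labelled library, so none met the minimum without its reads in the control. For that reason too, nothing is read from the ranks or the medians.

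For the M2 library against the control, 16.4% of 7988 genes were lower by 2-fold or more and 13.5% were higher by as much. All 9 genes met the minimum. LYZ and S100A8 were at least 2-fold higher, and none of the 9 was at least 2-fold lower. These calls depend on the scaling: with total reads HBB (log2 ratio 1.03), HBA2 (1.14) and PTPRC (1.15) were also at least 2-fold higher, and with totals without RN7SL1 and RN7SK ALAS2 (−1.13) was at least 2-fold lower. Their median log2 ratio was 0.78, with −0.15 over all genes. At the minimum of 100 reads, 8.88% of 3805 genes were at least 2-fold lower, and neither HBB, HBA1 nor HBA2, which met it, was among them. As in the first comparison, nothing is read from these counts or from the medians.

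The M2 library against the LINC-labelled library is the one pair that leaves out the control. HBB was higher in the M2 library by a log2 ratio of 9.62 (8.34 to 11.36) and HBA1 by 6.84 (4.33 to 12.16). HBA2 was higher by at least 7.69 against 3 fragments, and its exact interval starts at 7.38. ALAS2 was higher by 2.39 (0.32 to 5.18) and S100A8 by 3.56 (0.71 to 9.01). LYZ was higher by 4.34 (1.65 to 9.74), S100A9 by 4.71 (2.07 to 10.08) and PTPRC by 2.59 (1.16 to 4.34). CSF3R, at 1.45 (−0.06 to 3.14), was the one of the 9 whose interval includes 0. All 9 genes were at least 2-fold higher in the M2 library, and of all 7824 genes tested 4.65% were higher by that much and 12.2% lower. Nothing is read from this count, since the 9 genes were chosen with these values known. Each of the 9 genes had between 0 and 12 reads in the LINC-labelled library, so none met the minimum without its reads in the M2 library. S100A8 had 2 and 18 reads in this pair. This pair shares the LINC-labelled library with the first comparison, so it is no separate check of it.

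**Figure D3:**
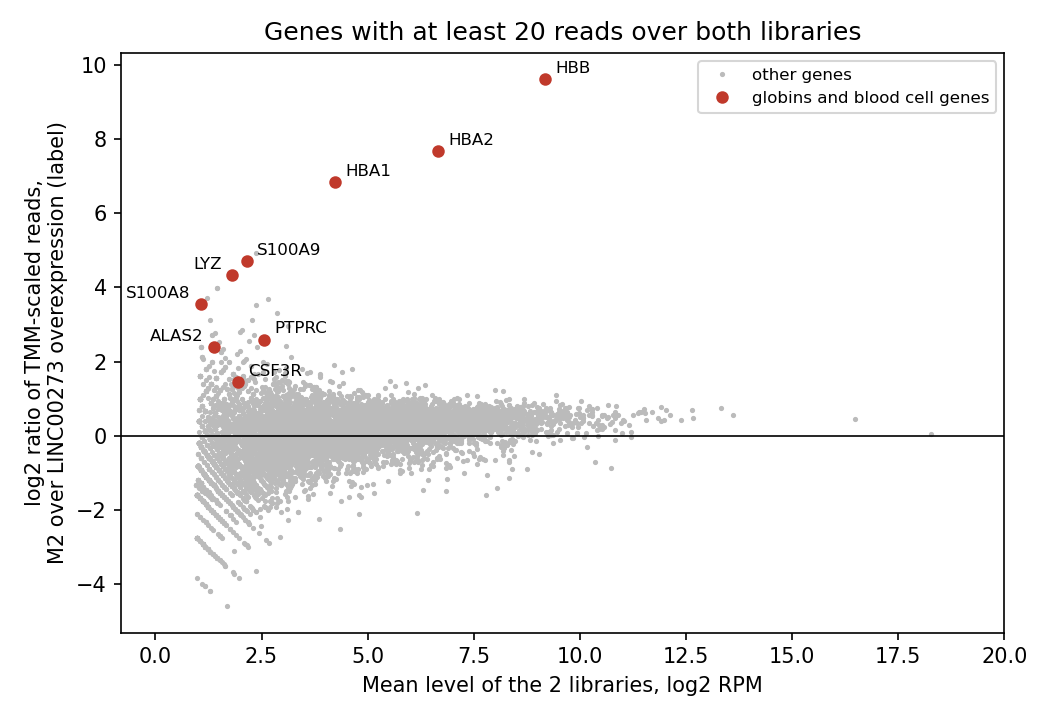
Log2 ratio of TMM-scaled reads of the M2 library over the LINC-labelled library against the mean level of both, in log2 RPM, for 7824 genes with at least 20 reads over both libraries. The 9 genes, in red, all lie above a log2 ratio of 1, and HBB, HBA2 and HBA1 are the 3 highest points at 9.62, 7.69 and 6.84.

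Genes of the red-cell membrane and of red-cell maturation, as a sum, had ratios near 0 in both comparisons with the control. The 21 erythroid membrane and maturation genes held 215, 188 and 125 reads. The log2 ratio of their sum was 0.04 (−0.38 to 0.45) for the LINC-labelled library against the control and −0.16 (−0.63 to 0.30) for M2 against the control. SLC4A1, the band 3 anion exchanger of the red-cell membrane, had 27, 10 and 18 reads, and AHSP, the chaperone of free alpha-globin, had 2, 0 and 2. Of 6 such genes with at least 20 reads in that pair, 2 were at least 2-fold lower (SLC4A1 and the carbonic anhydrase CA1).

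The 9 erythroid regulators held 158, 86 and 39 reads, most of them from LMO2, a bridging protein of the erythroid GATA1 complex, with 116, 50 and 22. Their summed log2 ratios to the control were −0.65 (−1.22 to −0.09) in the LINC-labelled library and −1.40 (−2.19 to −0.67) in the M2 library. GATA1 had 4, 6 and 2 reads and KLF1, the activator of HBB in red cells, had 0, 2 and 4, all at or near the floor. LMO2 was lowest in the M2 library, at a log2 ratio of −1.78 to the control, where the globins were highest.

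For heme synthesis apart from ALAS2, both summed ratios to the control had intervals that include 0. Its 9 genes held 324, 235 and 169 reads, and the log2 ratios of their sum to the control were −0.23 (−0.59 to 0.12) in the LINC-labelled library and −0.32 (−0.71 to 0.07) in the M2 library. ALAS1, the form of the enzyme used outside red cells, had 55, 64 and 42 reads, and unlike ALAS2 it was not low in the LINC-labelled library. Among genes of heme export and breakdown, BLVRB, a biliverdin reductase, had 316, 121 and 70 reads, and HMOX1, the inducible heme oxygenase, had 92, 46 and 34, with the highest count in the control. The summed log2 ratios of that list to the control were −0.97 (−1.33 to −0.63) in the LINC-labelled library and −1.21 (−1.63 to −0.80) in the M2 library, so both intervals lie below 0.

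The 22 neutrophil genes other than S100A8, S100A9 and CSF3R held 140, 135 and 139 reads, and 4 of them in the LINC-labelled library, 3 in the control and 4 in the M2 library were at 0. Their summed log2 ratio was 0.18 (−0.32 to 0.68) for the LINC-labelled library and 0.61 (0.11 to 1.11) for the M2 library, each against the control. FCGR3B, a neutrophil Fc receptor, had 20, 10 and 31 reads. The 13 monocyte genes other than LYZ held 120, 74 and 62 reads, and their summed log2 ratios to the control, −0.47 (−1.10 to 0.15) in the LINC-labelled library and −0.33 (−1.01 to 0.32) in the M2 library, both had intervals that include 0. VCAN, a matrix proteoglycan made by monocytes among other cells, had the most reads of that list, with 41, 44 and 28, and CD14, the monocyte endotoxin receptor, had 14, 0 and 4.

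The 15 pan-leukocyte genes other than PTPRC held 183, 111 and 171 reads. Their summed log2 ratio was −0.49 (−0.998 to 0.01) for the LINC-labelled library against the control, 0.52 (0.08 to 0.96) for M2 against the control, and 1.01 (0.51 to 1.53) for the M2 library against the LINC-labelled library. LCP1, an actin-bundling protein of white cells, had 30, 10 and 32 reads, close to the pattern of PTPRC, while WAS, the Wiskott-Aldrich actin regulator, had 28, 33 and 6. Lymphocyte genes held 86, 85 and 58 reads and platelet genes 43, 32 and 14. The part that cells with these markers had in the levels of the 9 genes was not tested.

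**Figure D4:**
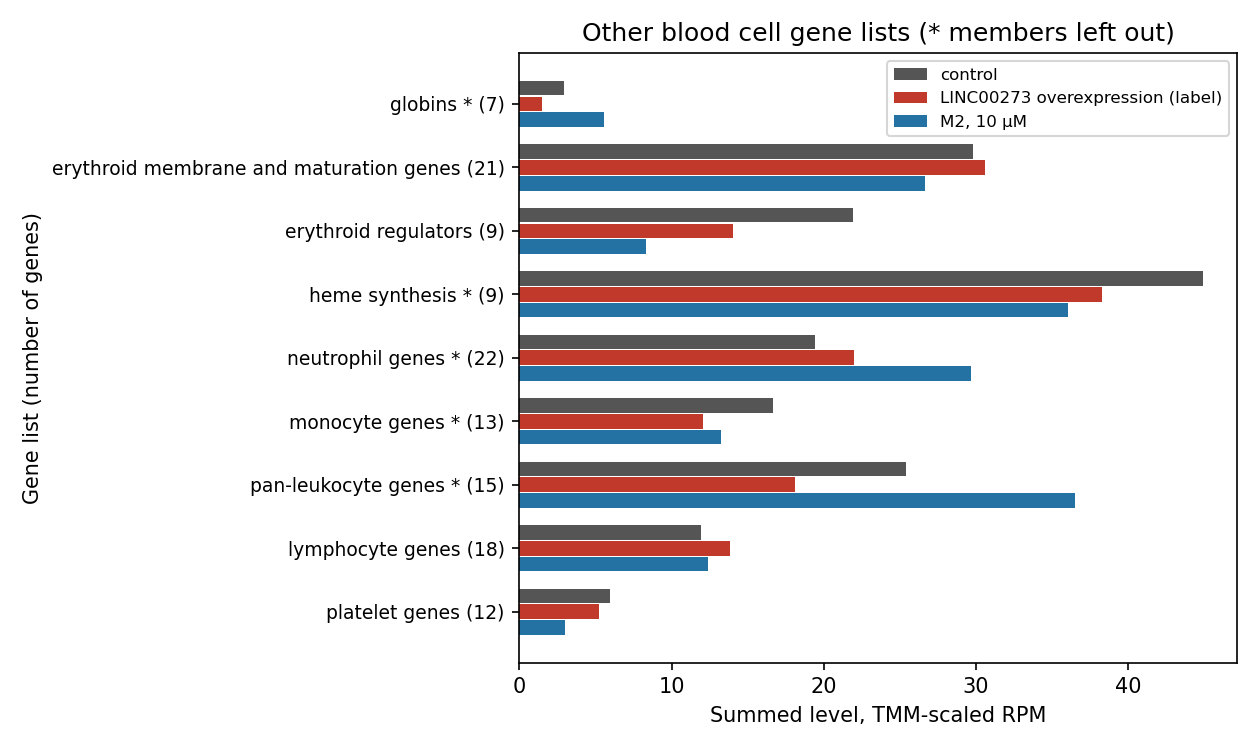
Summed level, in TMM-scaled RPM, of 9 blood cell gene lists in the 3 libraries; bars start at 0, the number of genes stands in parentheses, and an asterisk marks lists from which the 9 described genes were left out. The erythroid membrane and maturation genes stand at 29.8, 30.6 and 26.7, and the pan-leukocyte genes at 25.4, 18.1 and 36.5.

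Relatives of the calprotectin genes and neighbours of the alpha-globin genes were also followed. The 14 other S100 genes held 2184, 1077 and 517 reads, nearly all from S100A6, a calcium-binding protein common in cancer cells, with 2086, 1036 and 488. S100A6 was lowest in the M2 library, where S100A8 was highest. Of genes flanking the alpha-globin cluster on chromosome 16, LUC7L, a splicing factor, had 657, 496 and 512 reads. NPRL3, whose introns hold the alpha-globin enhancers, had 28, 15 and 18. The log2 ratio of the summed flanking genes was −0.20 (−0.43 to 0.03) for the LINC-labelled library against the control, and no such gene with at least 20 reads was 2-fold lower there.

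The genes whose pattern was most like that of HBB were found by the distance between the shares of each gene's scaled reads in the 3 libraries, among 5203 genes with at least 100 reads over all 3. With 3 libraries this distance is a description of shape. HBA2 (distance 0.0237) and HBA1 (0.0238) came first. SLC25A37, or mitoferrin, which brings iron into mitochondria for heme synthesis, came next at 0.0923 with 62, 12 and 71 reads. Its log2 ratios to the control were −2.14 (−3.69 to −0.85) in the LINC-labelled library and 0.82 (0.08 to 1.56) in the M2 library. HLA-E, a non-classical MHC class I chain, followed at 0.118 with 53, 5 and 44 reads. The others were MRRF, ARID5B, TMEM209, SPATS2, EGFR and PGS1, out to a distance of 0.208. EGFR, the receptor for epidermal growth factor, had 95, 8 and 61 reads, and its low count in the LINC-labelled library concerns a gene that is listed here for MDA-MB-231 cells rather than for blood. Of 7 such genes with at least 20 reads, 2 were at least 2-fold lower there than in the control, EGFR and CAV1 (725, 208 and 288 reads). B2M, which is in none of the blood lists, had 119, 0 and 59 reads.

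With a lower minimum of 20 reads, added after the data were seen, HBA2 and HBA1 again came first, followed by HLA-B, a classical MHC class I chain, with 41, 2 and 47 reads. That list also held SRGN, a proteoglycan of white-cell granules, with 12, 2 and 16 reads, and S100A9.

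In the authors' deposited table of significant genes for the LINC-labelled library against the control, 6 of the 9 genes were listed as down. That table lists 330 genes as down, 0.571% of all 57773, and nothing is read from the count, since it uses the values that chose the genes. The deposited log2 ratios were −8.77 for HBB, −6.08 for HBA1, −4.21 for S100A9, −3.27 for ALAS2, −2.27 for S100A8 and −2.15 for LYZ. HBA2, PTPRC and CSF3R were not among its 809 genes. The authors' deposited table for M2 held 670 genes, of which LYZ, listed as up with a ratio of 4.56, was the single one of the 9. It lists 294 genes as up, 0.509% of all. Among the pathway terms that the authors' deposited table gives for the lower genes, neutrophil degranulation had a fold enrichment of 3.38. The lower genes come from the same single libraries and include 6 of the 9 genes, so the term is no separate check.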

How the data were processed

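RNA was measured in 3 libraries, 1 per group. TRIzol-extracted total RNA was depleted of ribosomal RNA with RiboCop and sequenced as paired-end Illumina reads, per the labels' protocols. The submitters' processing notes name the build hg19 and the tools Trimmomatic, STAR, Bowtie2 2.2.4, DESeq2 and featureCounts 1.5.2. Whether counting used strand, and how it placed multi-mapping reads, is not given in the sources used here, so antisense or duplicated genes can share reads.

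The values deposited by the authors are a signal per gene, reads divided by 1 size factor per library. Whole reads were recovered for 100% of the values (tolerance 0.01) and used in place of the counts that the design assumed. Of genes under 20 reads, 80.5% to 85.8% had an even number, so most fragments were counted as 2 reads, and intervals and floors (3 fragments) were computed on fragments. PCR duplicates are not independent molecules, so these cover counting error only.

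TMM scaling was computed with edgeR 4.0.16 in R 4.3.3. No count test was run, since single libraries leave no residual degrees of freedom. A gene was called by size, at least 2-fold, with at least 20 reads over both libraries or 100 in 1 or both. Exon lengths came from GENCODE 29 on GRCh38, matched by gene identifier. The ratio, log2 ratio, fold enrichment and p-value of the authors' deposited tables are quoted as deposited. The ratio code was tested on simulated data.

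The genes described, the gene lists and the comparisons were chosen with earlier results of these data known. Named genes are the 9, up to 6 genes of each list with the most reads (others were named after their values were seen), and the 10 most like HBB. Some genes that this rule names are left out of the text. Alternatives were DESeq2 1.42.0 size factors, other totals, the deposited scale, a prior of 5 reads, other minimums and a 4-fold threshold.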

Additional observations from a re-analysis of the deposited data

How the results depend on the processing

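No paired analysis was possible because each group has 1 library, and for the same reason no library could be left out. Over 45 alternative values per comparison (9 genes under 4 other scalings and a prior of 5 reads), no ratio of the 9 genes changed sign, and 1, 3 and 1 values moved beyond their counting interval in the 3 comparisons. The summed globin ratio of the LINC-labelled library to the control ranged from −8.81 to −8.28. Genes with 2 reads in the LINC-labelled library moved most under the prior: HBA1 from −6.16 to −4.40, S100A9 from −4.29 to −2.63, S100A8 from −2.35 to −1.05 and LYZ from −2.23 to −0.96. The summed globin ratio of the M2 library, 0.79, became 1.04 with total reads, 0.62 with totals without RN7SL1 and RN7SK, and 0.86 on the deposited scale. These scalings shift all genes alike: total reads moved log2 ratios by 0.52 (LINC-labelled) and 0.26 (M2) against the control, and totals without RN7SL1 and RN7SK by 0.18 and −0.17. Levels depend on the total in the same way: without RN7SL1 and RN7SK, HBB stood at 1245 RPM in the control and 1902 in the M2 library, in place of 564 and 1154. The 254 genes at least 2-fold lower in the LINC-labelled library became 37 with total reads, 124 without RN7SL1 and RN7SK, 706 and 77 at minimums of 20 and 500 reads in 1 or both libraries, 1824 with no minimum, and 9 at 4-fold. The 338 of the M2 library became 166, 526, 1150, 85, 2259 and 19 under the same settings. These counts differ by construction, through the shift, the number of genes tested or the threshold. Depth limits S100A8 and LYZ, with 2 reads each in the LINC-labelled library.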
